A study of Mus musculus with 10 samples.

Results

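NF-kB is a family of dimeric transcription factors built from 5 subunit genes, and it switches on the genes of several of its own inhibitors. The genes described here are the 5 subunits (Nfkb1, Nfkb2, Rela, Relb and Rel) and 5 genes that NF-kB is known to induce and that feed back on it (Nfkbia, Nfkbie, Tnfaip3, Birc3 and Traf1). They were taken by symbol from a table of 20813 genes in 10 leukemic spleens, and all 10 were found and passed the filter on low values (a mean normalized count of at least 10), as did 15276 genes in all.

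The spleens came from mice labelled C57BL/6 that received sub-lethal irradiation and then an intravenous injection of T-cell acute lymphoblastic leukemia (T-ALL), a cancer of immature T cells. Every leukemia, in both groups, carried a conditional Sirt1 allele. In 5 samples, titled TMX and labelled Sirt1-deleted, the recipients belonged to the arm given tamoxifen (3 mg per mouse, intraperitoneal, in corn oil), and in 5 samples, titled VEH and labelled control, to the arm given corn oil without tamoxifen. Treatment and genotype divide the samples alike and cannot be told apart, and no sample here combines tamoxifen with an intact allele. The labels name neither the Cre line nor the oncogene, give no age, and do not say whether the recipients shared 1 leukemia, so the p-values measure the spread between these samples, which may in part be technical. Samples are named here by group and title number (TMX 7, 8, 10, 11 and 12; VEH 2, 3, 4, 5 and 6).

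Sirt1 encodes a NAD-dependent deacetylase that is known to remove acetyl groups from the RELA protein, which gives the comparison its interest for NF-kB. In resting cells the inhibitors IkB-alpha and IkB-epsilon, encoded by Nfkbia and Nfkbie, hold NF-kB dimers in the cytoplasm. The IKK kinase complex marks these inhibitors for degradation, the freed dimers enter the nucleus, and the newly made inhibitors and the ubiquitin-editing enzyme A20 (Tnfaip3) end the response. In T-ALL, NF-kB activity has been linked to NOTCH1 signalling. RNA levels do not measure where the proteins are or how they are modified.

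Sirt1 was examined first as a check of the labels. Its normalized count was 1925 in TMX 7, 1715 in TMX 8, 1817 in TMX 10, 1812 in TMX 11 and 2097 in TMX 12, against 1735, 1803, 1796, 1909 and 1810 in VEH 2 to 6. The groups overlapped (log2 difference 0.05, SE 0.06, limma adjusted p = 0.568), so the gene-level value did not show the deletion that the label names. A value summed over the gene does not separate a deleted exon from the rest. Every direction below is therefore that of the libraries labelled Sirt1-deleted against those labelled control.

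Promoter stretches are shown because they let the element of the pathway be read in some of its own genes. The kappaB consensus, the 10-base DNA element that NF-kB dimers bind, was searched on both strands of RefSeq promoter windows (GRCm38.p6, 250 bases before to 50 after each transcript start). It was present in 5 of the 8 members with a window and in 9.55% of the 27025 genes with a window. Relb and Nfkb1 had no window. The stretches below are written 5′ to 3′ along the gene, with the bases of a match on either strand in capitals.
Nfkbia: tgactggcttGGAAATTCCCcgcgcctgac
Rel: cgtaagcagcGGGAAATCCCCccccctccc
Nfkb2: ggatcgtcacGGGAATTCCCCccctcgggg
Tnfaip3: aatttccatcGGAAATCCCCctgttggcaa
Nfkbie: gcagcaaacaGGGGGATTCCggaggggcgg
The Nfkbia stretch lies on the minus strand at chr12:55492657-55492686, with the match at bases -29 to -20 from the start. The Rel stretch is on the minus strand at chr11:23771042-23771071 and holds 2 overlapping positions of the motif, from -92 to -82, the first of which reads as a match on both strands. In Nfkb2 (plus strand, chr19:46304688-46304717) the match spans -39 to -29, the same window holds another match at -11 to -2, and the windows of its other starts hold further ones. The Tnfaip3 stretch (minus strand, chr10:19015403-19015432) has its match at -12 to -3, with another at -125 to -116 of the same window, and that of Nfkbie (plus strand, chr17:45555584-45555613) at -106 to -97. No match was found in the windows of Rela, Birc3 and Traf1. That says only that these letters were not in those windows, and a match is not proof of a bound site.

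Of the 10 genes, 7 were lower in the libraries labelled Sirt1-deleted and 0 were higher (limma, Benjamini-Hochberg adjusted p under 0.05 over all genes tested). Over the 15276 genes tested, 36.1% were called in either direction, 19.4% as lower and 16.8% as higher. Among the 9573 genes whose mean lies within the range of these 10 genes, 25.8% were called as lower and 41.8% in either direction. The median log2 difference was -0.23 over the 10 genes and -0.00014 over all genes. All 5 subunit genes fell, by 14.1% to 20.5% of the control mean, and among the 5 feedback genes Nfkbie and Tnfaip3 fell while Nfkbia, Birc3 and Traf1 were not called. These were modest changes: between 14.3% and 24.6% of all tested genes had a more negative log2 difference than the 7 genes that fell.

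**Figure D1:**
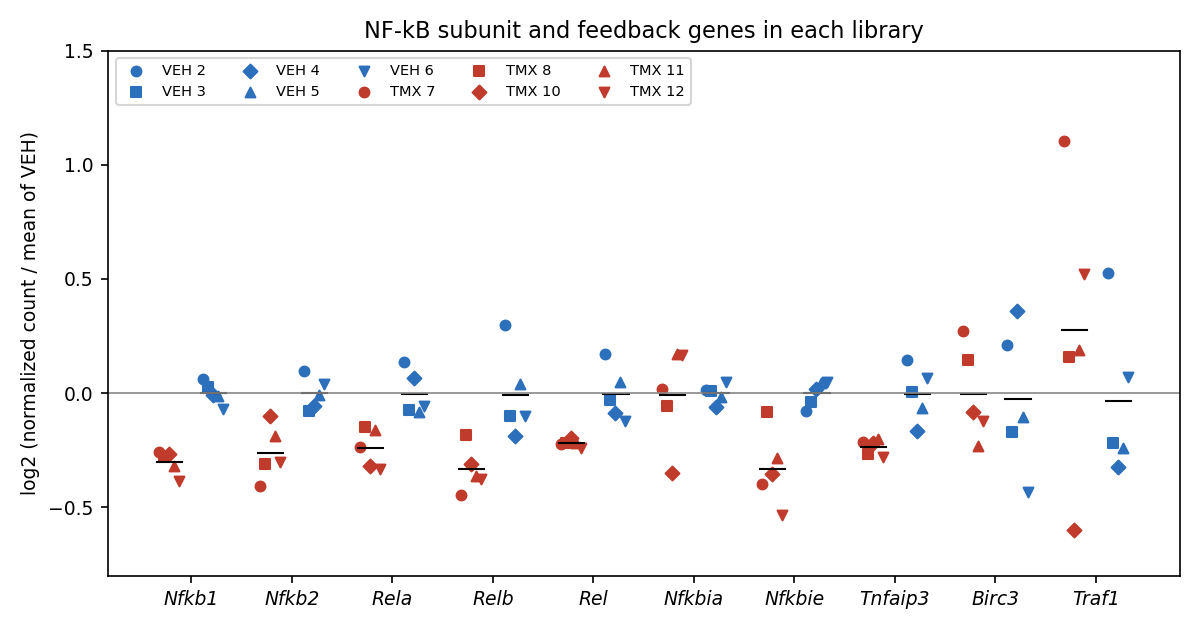
Normalized count of each gene in each library as the log2 ratio to the mean of the 5 VEH libraries (TMX red, VEH blue, symbols mark single libraries, black bars mark group means of the log2 ratios). The TMX points of Nfkb1, Nfkb2, Rela, Rel, Nfkbie and Tnfaip3 lie below every VEH point of the same gene, while those of Nfkbia, Birc3 and Traf1 overlap with the VEH points.

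Nfkb1 (ENSMUSG00000028163.17, chr3:135584655-135691547, minus strand) encodes p105, the precursor of the p50 subunit. Its normalized count was 5104 in TMX 7, 5050 in TMX 8, 5082 in TMX 10, 4903 in TMX 11 and 4679 in TMX 12, against 6371, 6227, 6076, 6062 and 5824 in VEH 2 to 6. All TMX values lay below all VEH values, and the gap was wide against the spread within each group. The log2 difference was -0.30 (SE 0.04, 95% interval -0.39 to -0.21, limma adjusted p = 6.21e-04), from 6112 ± 204 to 4964 ± 177 (SD, n = 5 each). GENCODE M21 places another gene model, Gm43430, on the same strand within Nfkb1.

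Rela (ENSMUSG00000024927.8, chr19:5637483-5648130, plus strand) encodes p65, the transactivating partner of p50 and the subunit that SIRT1 deacetylates. Its counts were 2525 in TMX 7, 2685 in TMX 8, 2386 in TMX 10, 2662 in TMX 11 and 2365 in TMX 12, against 3272, 2828, 3117, 2812 and 2859 in VEH 2 to 6. The groups did not overlap, and TMX 8 and TMX 11 came nearest to the controls. Rela averaged 2525 ± 149 in TMX and 2978 ± 206 in VEH libraries (SD, n = 5 each), and it fell by 0.24 on the log2 scale (SE 0.06, limma adjusted p = 0.00920).

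Rel (ENSMUSG00000020275.9, chr11:23736847-23770970, minus strand) encodes c-Rel, a subunit best known from activated lymphocytes. It was the most even gene of the TMX group, at 329 in TMX 7, 330 in TMX 8, 336 in TMX 10, 331 in TMX 11 and 325 in TMX 12, a coefficient of variation of 1.10%. Controls were spread from 352 in VEH 6 to 433 in VEH 2, with VEH 3, 4 and 5 at 377, 361 and 397. The groups did not overlap, yet the call was close to the threshold (log2 difference -0.21, SE 0.08, limma adjusted p = 0.0473). Leaving out 1 library at a time ended the call in 9 of 10 fits, the exception being the fit without VEH 6.

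Nfkb2 (ENSMUSG00000025225.15, chr19:46304320-46312385, plus strand) encodes p100, the precursor of p52, and belongs with Relb to the slower non-canonical branch of the pathway. Its counts were 1143 in TMX 7, 1221 in TMX 8, 1412 in TMX 10, 1329 in TMX 11 and 1227 in TMX 12, against 1619, 1433, 1458, 1507 and 1556 in VEH 2 to 6. The groups were separate, with TMX 10 nearest to the controls. Nfkb2 averaged 1266 ± 105 in TMX and 1515 ± 75.1 in VEH libraries (SD, n = 5 each), and it fell by 0.26 on the log2 scale (SE 0.07, limma adjusted p = 0.00911). On the opposite strand GENCODE M21 places AC114539.1 and Psd over parts of Nfkb2. The libraries were strand-specific per the labels, but whether strand was used in quantification is not given in the sources used here.

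Relb (ENSMUSG00000002983.17, chr7:19606217-19629438, minus strand) encodes the usual partner of p52. Its counts were 291 in TMX 7, 348 in TMX 8, 319 in TMX 10, 308 in TMX 11 and 305 in TMX 12, against 486, 369, 348, 406 and 369 in VEH 2 to 6. It was the one subunit whose groups overlapped, since TMX 8 lay just above VEH 4. The log2 difference was -0.32 (SE 0.10, limma adjusted p = 0.0241), and VEH 2 stood highest by a wide margin. Without VEH 2 the log2 difference was -0.25 and the call was lost (limma adjusted p = 0.0554). The call was also lost without TMX 7 (limma adjusted p = 0.0587) and without VEH 5 (limma adjusted p = 0.0539). VEH 2 was the highest library of Nfkb1, Nfkb2, Rela, Rel and Tnfaip3 as well. Averaged over the 7 genes that fell, the log2 value centred on each gene was 0.26 in VEH 2 and 0.08 to 0.13 in the other controls. Without VEH 2, 5 members were still called.

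Nfkbie (ENSMUSG00000023947.8, chr17:45555703-45563169, plus strand) encodes IkB-epsilon, an inhibitor with delayed feedback. Its counts were 486 in TMX 7, 605 in TMX 8, 501 in TMX 10, 525 in TMX 11 and 443 in TMX 12, against 607, 624, 649, 660 and 662 in VEH 2 to 6. The groups did not overlap, although TMX 8 and VEH 2 lay side by side. Nfkbie had the most negative log2 difference of the 10 genes, -0.33 (SE 0.08, limma adjusted p = 0.00932), with 512 ± 60.1 against 641 ± 24.0 (SD, n = 5 each).

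Tnfaip3 (ENSMUSG00000019850.11, chr10:19000910-19015657, minus strand) encodes A20, which removes activating ubiquitin chains upstream of IKK. Its counts were 1393 in TMX 7, 1343 in TMX 8, 1392 in TMX 10, 1406 in TMX 11 and 1334 in TMX 12, against 1788, 1621, 1440, 1547 and 1692 in VEH 2 to 6. The TMX libraries were narrowly grouped and all lay below the lowest control, VEH 4. The means were 1374 ± 32.8 and 1618 ± 133 (SD, n = 5 each), and Tnfaip3 fell by 0.23 on the log2 scale (SE 0.06, limma adjusted p = 0.0116).

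Nfkbia (ENSMUSG00000021025.8, chr12:55489410-55492647, minus strand) encodes IkB-alpha, the fast inhibitor and the standard readout of NF-kB transcription. Its counts were 2500 in TMX 7, 2374 in TMX 8, 1938 in TMX 10, 2784 in TMX 11 and 2769 in TMX 12, against 2496, 2486, 2369, 2438 and 2555 in VEH 2 to 6. Controls varied by 2.83% (coefficient of variation) and TMX libraries by 14.0%, with TMX 10 below every control and TMX 11 and TMX 12 above every control. The means were nearly equal (2473 and 2469; log2 difference -0.01, 95% interval -0.20 to 0.18, limma adjusted p = 0.949). The log2 differences of the 7 genes that fell were -0.33 to -0.21, but these estimates have intervals of their own. Those of Rel and Relb reach up to -0.05 and -0.11, into the interval of Nfkbia. The Nfkbia interval also assumes a common spread for the groups, which differed here. It therefore does not settle whether Nfkbia changed differently from those genes.

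Birc3 (ENSMUSG00000032000.17, chr9:7848699-7873186, minus strand) encodes cIAP2, a ubiquitin ligase of TNF receptor complexes. Its counts were 733 in TMX 7, 672 in TMX 8, 574 in TMX 10, 518 in TMX 11 and 558 in TMX 12, and 703, 540, 780, 564 and 450 in VEH 2 to 6. Both the lowest and the highest library were controls, and the log2 difference of 0.02 had a 95% interval of -0.29 to 0.34 (limma adjusted p = 0.918).

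Traf1 (ENSMUSG00000026875.14, chr2:34941750-34961772, minus strand) encodes an adaptor of TNF receptor family members. Its normalized count was 180 in TMX 7, 93.4 in TMX 8, 55.1 in TMX 10, 95.3 in TMX 11 and 120 in TMX 12, against 121, 72.0, 66.9, 70.9 and 87.9 in VEH 2 to 6. The TMX values lay on both sides of the controls, with TMX 7 highest and TMX 10 lowest of all libraries. The log2 difference of 0.31 was not called (95% interval -0.28 to 0.90, limma adjusted p = 0.399), an interval that holds both a rise and a fall of the size seen in Nfkb2.

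An exact two-sided permutation test of the group labels gave p = 0.00794, the smallest that 5 against 5 allows, for each of the 6 genes whose groups did not overlap. All 6 were lower in TMX, and 12.9% of all tested genes were lower without overlap. The exact permutation p was 0.0159 for Relb, 0.960 for Nfkbia, 0.905 for Birc3 and 0.325 for Traf1.

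**Figure D2:**
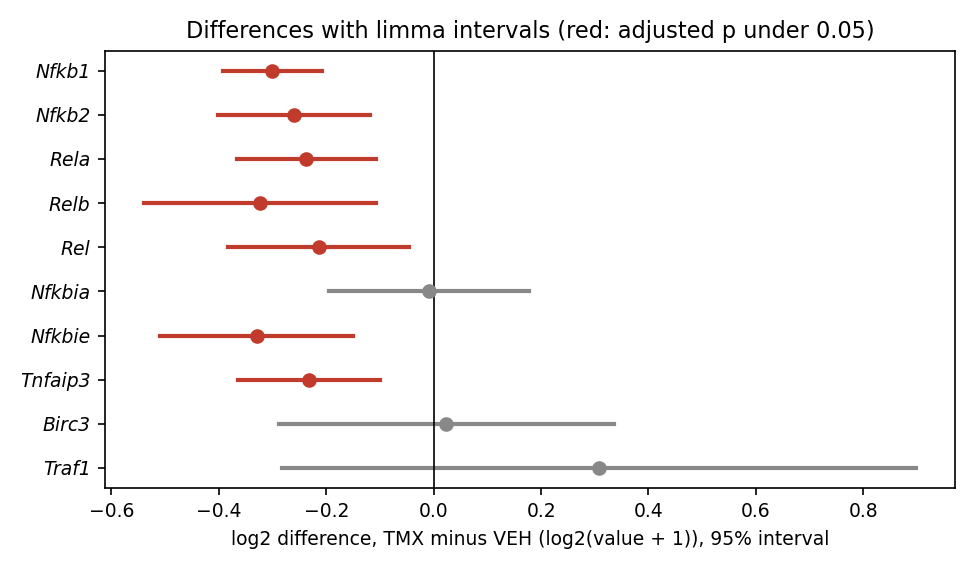
Log2 difference (TMX minus VEH, on the log2(value + 1) scale) of each gene with its 95% interval from limma, 5 libraries per group, red where the adjusted p was under 0.05. The 7 red points lie from -0.33 (Nfkbie) to -0.21 (Rel). Their intervals lie below 0, from -0.54 (lower end, Relb) to -0.05 (upper end, Rel), and the intervals of Nfkbia, Birc3 and Traf1 include 0.

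Ratios of 2 members within a library do not depend on how that library was scaled, and 5 were compared. The ratio of Nfkbia to Rela was 0.981 ± 0.140 in TMX and 0.832 ± 0.0657 in VEH libraries (SD, n = 5 each). It was higher in TMX on average, but the groups overlapped (log2 difference 0.23, exact permutation p = 0.0635, adjusted p = 0.317 over the 5 ratios). A difference between the changes of Nfkbia and Rela was therefore not shown. Nfkbie to Rela (log2 difference -0.09, exact permutation p = 0.278), Nfkb1 to Rela (-0.06, exact permutation p = 0.278), Nfkb2 to Relb (0.06, exact permutation p = 0.460) and Rel to Rela (0.02, exact permutation p = 0.746) also overlapped between the groups. No ratio passed the test, which does not show that the ratios were equal.

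Levels of different genes were set side by side as normalized count per kb of the longest transcript in GENCODE M21. In VEH libraries the order by median was Nfkbia (1575 per kb), Nfkb1 (1464), Rela (1053), Nfkb2 (392), Tnfaip3 (261), Nfkbie (216), Birc3 (194), Relb (113), Rel (50.4) and Traf1 (21.0). The sample values of neighbours overlapped in VEH for Nfkbia with Nfkb1 and for Nfkbie with Birc3, and all other neighbours were separate. On this per-kb scale Nfkb1 and Rela, the p50 and p65 pair of the canonical branch, were the highest subunits in both groups, and Rel was the lowest. In TMX libraries the order was the same except that Birc3 (197 per kb) stood above Nfkbie (167 per kb). There Nfkbia (1584 per kb) again overlapped with Nfkb1 (1217 per kb), Tnfaip3 (225 per kb) with Birc3, Birc3 with Nfkbie, and Rel (44.2 per kb) with Traf1 (27.7 per kb).

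**Figure D3:**
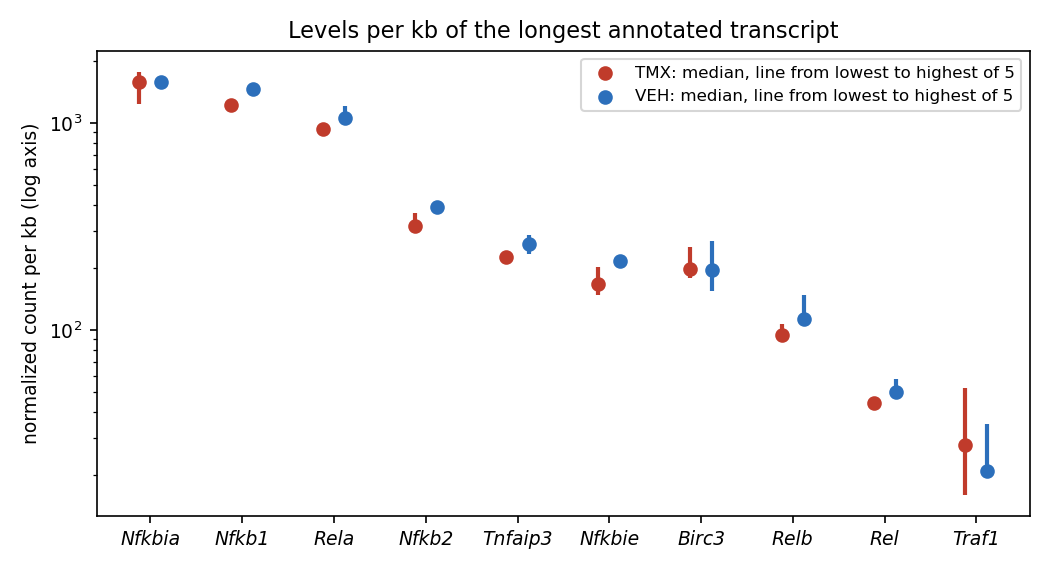
Normalized count per kb of transcript (log axis) for the 10 genes, ordered by the VEH median, with points at the median and lines from the lowest to the highest of 5 libraries per group. Nfkbia, Nfkb1 and Rela lie highest, at 930 to 1584 per kb, and Traf1 lies lowest, at 27.7 in TMX and 21.0 in VEH.

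Markers of other cells were detected, and some of their lists moved with the groups. Of 14 neutrophil markers, 13 rose and 0 fell, and their summed normalized count was 28974 to 99982 in TMX against 9166 to 12658 in VEH libraries. The defining marker Ly6g averaged 223 against 20.9 and was above 0 in every library. Of 16 macrophage and monocyte markers, 13 rose (sums of 6380 to 13213 against 3141 to 3503; Csf1r 581 against 428). Of 20 interferon response genes, 18 rose (sums of 22102 to 37304 against 12280 to 14879). Of 11 T lineage markers, 1 rose and 2 fell, with sums of 147882 to 165253 against 170199 to 178606 (Cd3e 11998 against 12238). That sum is weighted to Tcf7, the marker with the highest count, which fell from 77942 in VEH to 58426 in TMX. The median log2 difference of the 11 markers was -0.04, so the lower sums do not show a fall of the list as a whole. Each of the other lists held at most 2 calls, where 16.8% of all genes were called higher and 19.4% lower. Whether these counts differ from those shares was not tested. Their summed levels overlapped between the groups except for the stromal list. Of 9 B cell markers 1 rose, of 6 tested dendritic cell markers 2 rose (Zbtb46 124 against 109), and of 6 tested stromal and endothelial markers 2 fell (sums of 4904 to 5396 against 5663 to 6597; Pecam1 3192 against 3252). Pecam1 and Pdgfrb (1459 in TMX, 2170 in VEH) made up most of the stromal sum, so it says little about the list as a whole. Of 6 erythroid markers and 4 tested NK cell markers 0 were called by limma, and 0 had an unadjusted p under 0.05. Gzma (14982 in TMX, 13290 in VEH) made up nearly all of the NK sum, and the defining marker Ncr1 was not analysed. The NK sum therefore says little about NK cells. In bulk tissue, fewer cells of a type and less RNA per cell cannot be told apart, and the part of cell composition in the differences was not tested.

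TMX 7 and TMX 8 had the highest neutrophil sums (60145 and 99982). Without these 2 libraries the log2 differences were -0.32 for Nfkb1, -0.27 for Rela and -0.39 for Nfkbie, as large as with them, and these 3 genes were still called (limma adjusted p = 0.00479, 0.0250 and 0.0118). Those of Relb (-0.34), Tnfaip3 (-0.23), Rel (-0.21) and Nfkb2 (-0.20) no longer passed, in a comparison of 3 libraries with 5 in which 3388 genes were called instead of 5518. The TMX libraries that remained (10, 11 and 12) still had neutrophil sums of 28974 to 44848, against at most 12658 in VEH. Leaving out TMX 7 and TMX 8 therefore did not remove the neutrophil difference, and its part in the falls was not tested. TMX 10 and TMX 11 stood apart from the other TMX libraries in the pre-T-cell receptor gene Ptcra, a gene chosen after its values were seen, at 1171 and 1157 against 278 to 351. Without these 2 libraries 6 of the 7 calls held, and Rel (-0.22) was lost (limma adjusted p = 0.0710).

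The falls were also expressed relative to T lineage RNA, in scalings chosen after the values were seen. Scaled to the geometric mean of Cd3d, Cd3e and Cd3g, which was itself higher in TMX by 0.08 (log2), the differences grew to between -0.41 (Nfkbie) and -0.29 (Rel), and 6 of the 7 calls held. Scaled to all 11 T lineage markers, whose geometric mean was lower in TMX by 0.10 (log2), they shrank to between -0.23 (Nfkbie) and -0.11 (Rel), and Nfkb1 alone was still called (-0.20, limma adjusted p = 0.0377). All 7 stayed below 0 under both scalings. The 11-marker mean includes Tcf7 (log2 difference -0.42, limma adjusted p = 9.06e-04) and Cd5 (-0.61, limma adjusted p = 1.04e-04), which fell. It also includes Ptcra, uneven within the TMX group at 1171 and 1157 in TMX 10 and 11 against 278 to 351 in the others. The part of that unevenness in the lost calls was not tested. Of the Cd3 genes, Cd3d was itself called higher (0.17, limma adjusted p = 0.0170), while Cd3e (-0.04) and Cd3g (0.11) were not called. The size of the falls relative to leukemia RNA therefore depends on the marker genes chosen.

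**Figure D4:**
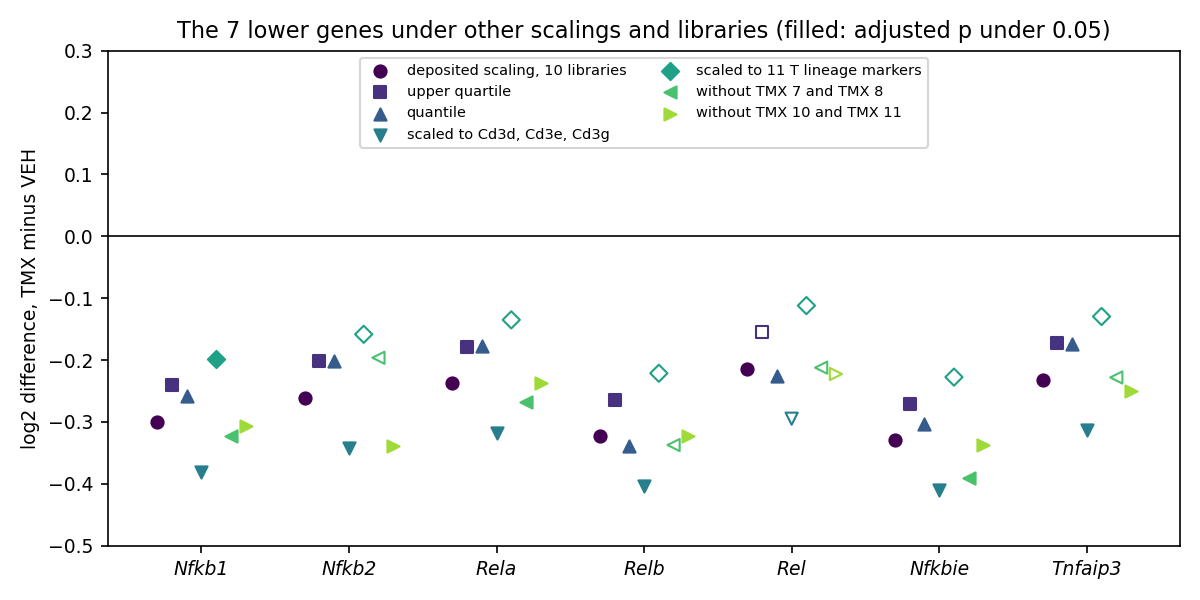
Log2 difference (TMX minus VEH) of the 7 lower genes with the deposited scaling, under 4 other scalings and without pairs of TMX libraries, filled where the adjusted p was under 0.05. Every point lies below 0, and scaling to the 11 T lineage markers leaves Nfkb1 as the single filled point of that setting.

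The rest of the pathway was read from 7 lists with 105 genes, of which 101 passed the filter. Of these, 18 rose and 22 fell, together 39.6%, near the 36.1% of all genes, and their median log2 difference was -0.00. Every called gene among the other inhibitors was lower and every called ligand was higher, while the remaining lists held both. The counts of single lists below stand beside 16.8% of all genes called higher and 19.4% called lower. Differences between lists, or from these shares, were not tested. The split turned with the scaling, to 18 higher and 8 lower when scaled to the 11 T lineage markers and to 8 higher and 23 lower when scaled to the Cd3 genes. Of the 28 pathway genes named below, 14 lost their call under one of these scalings. Scaling to the Cd3 genes ended the calls of Ltb, Tlr4, Nod1, Sharpin, Chuk, Gadd45b, Irf1 and Kat2b, and scaling to the 11 markers those of Malt1, Map3k7, Zc3h12a, Pdlim2, Setd7 and Sirt6.

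Among 17 other inhibitors and feedback regulators 8 fell and 0 rose (median log2 difference -0.10), and 1 was higher at an unadjusted limma p under 0.05. Tnip1, whose product ABIN1 works with A20, averaged 1093 ± 60.8 in TMX and 1592 ± 184 in VEH libraries (SD, n = 5 each), and it fell by 0.54 on the log2 scale (limma adjusted p = 6.42e-04). Tnip3, a relative of Tnip1, averaged 40.7 ± 15.8 against 90.6 ± 20.6 and fell by 1.19 (limma adjusted p = 0.00504). Zc3h12a, which encodes the RNase Regnase-1, fell by 0.55 on the log2 scale (limma adjusted p = 0.0132), and Pdlim2, a ubiquitin ligase for nuclear p65, by 0.27 (limma adjusted p = 0.0301). The Pdlim2 call was lost in 5 of the 10 fits without 1 library. The IkB relatives Nfkbib, Nfkbid, Nfkbiz and Bcl3 were not called.

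Among 9 ligands of NF-kB-activating receptors 4 rose and 0 fell (median log2 difference 0.34), and 0 were lower at an unadjusted limma p under 0.05. Ltb, the lymphotoxin-beta gene, is itself a known NF-kB target in lymphocytes. It averaged 1400 ± 272 in TMX and 995 ± 73.5 in VEH libraries (SD, n = 5 each) and rose by 0.47 on the log2 scale (limma adjusted p = 0.0141). TMX 10 (927) lay inside the control range of 875 to 1063. The call was lost without TMX 7 and TMX 8. Il1b averaged 30.2 ± 9.49 against 10.3 ± 5.65 and rose by 1.54 (limma adjusted p = 0.00536). Tnfsf13b, the gene of the B cell survival factor BAFF, averaged 31.2 ± 5.26 against 14.7 ± 4.61 and rose by 1.07 (limma adjusted p = 0.00720). Cd40lg rose from 6.95 to 17.0 (limma adjusted p = 0.0260), a call lost in 5 of the 10 fits without 1 library. Il1b and Tnfsf13b are also expressed by neutrophils and monocytes, whose markers rose in the same libraries, and that part was not tested. Tnf was not called (221 against 210, limma adjusted p = 0.887).

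Of 18 receptors 5 rose and 2 fell. Cd40, the receptor for the Cd40lg product, averaged 45.1 ± 11.5 against 21.8 ± 7.32 and rose by 1.03 on the log2 scale (limma adjusted p = 0.0112). Tnfrsf11a, the gene of RANK, rose by 0.80 (limma adjusted p = 0.00954, lost without TMX 7 and TMX 8) and Tlr4, the endotoxin receptor, by 0.83 (limma adjusted p = 0.0343, lost in 5 of the 10 fits without 1 library). Il1r1, the signalling interleukin-1 receptor, averaged 338 ± 81.9 against 593 ± 181 and fell by 0.79 (limma adjusted p = 0.0140), opposite in direction to its ligand gene Il1b.

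Of 20 adaptors and ubiquitin ligases 3 rose and 5 fell. Traf3, whose product restrains the non-canonical branch, averaged 2000 ± 199 in TMX and 2760 ± 222 in VEH libraries (SD, n = 5 each). It fell by 0.47 on the log2 scale (limma adjusted p = 0.00123) without overlap, in the same libraries in which Nfkb2 and Relb were lower. Malt1, the protease of antigen receptor signalling to NF-kB, fell by 0.33 on the log2 scale (limma adjusted p = 0.00495). Sharpin, a subunit of the linear ubiquitin ligase, rose by 0.42 (limma adjusted p = 0.00541), and Nod1, a sensor of bacterial cell wall fragments, by 0.48 (limma adjusted p = 0.0137).

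Of 10 genes of the IKK complex and its kinases 1 rose and 3 fell. Ikbkg, the gene of the regulatory subunit NEMO, averaged 1013 ± 196 in TMX and 1380 ± 53.4 in VEH libraries (SD, n = 5 each) and fell by 0.47 on the log2 scale (limma adjusted p = 0.00627). It overlaps G6pdx on the opposite strand. Map3k7, the gene of the kinase TAK1, fell by 0.26 on the log2 scale (limma adjusted p = 0.00566), and Tab3, which encodes a TAK1 partner, by 0.40 (limma adjusted p = 0.00934). The catalytic subunit gene Chuk (IKK-alpha) rose by 0.25 (limma adjusted p = 0.0109), a call lost without TMX 7 and TMX 8, and Ikbkb (IKK-beta) was not called (4609 against 4476, limma adjusted p = 0.649).

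**Figure D5:**
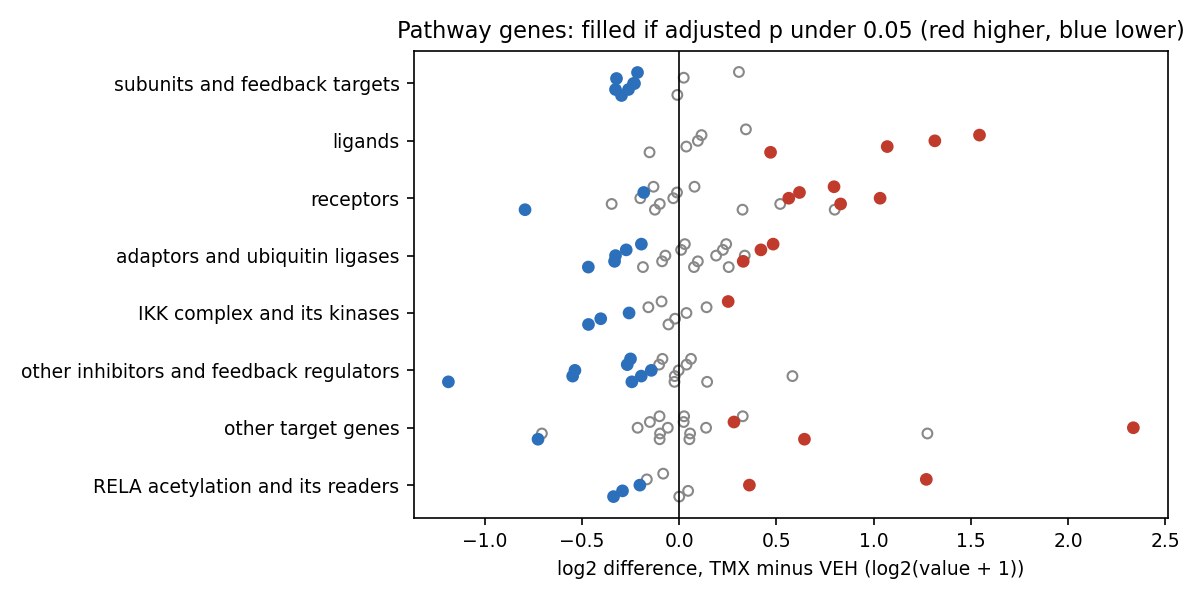
Log2 difference (TMX minus VEH) of each tested gene by list, with 1 point per gene, filled where the adjusted p was under 0.05 (red higher, blue lower) and open otherwise. The filled points of the subunits and feedback targets and of the other inhibitors lie below 0, those of the ligands lie above 0, and the other lists hold both.

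Of 22 other target genes of NF-kB, 18 passed the filter, and 3 rose and 1 fell. Cxcl10, a chemokine gene that interferon also induces, averaged 55.1 ± 10.7 in TMX and 11.7 ± 7.77 in VEH libraries (SD, n = 5 each) and rose by 2.34 on the log2 scale (limma adjusted p = 0.00106). Gadd45b, a stress response gene, rose by 0.64 (limma adjusted p = 0.0212), and Irf1 by 0.28 (limma adjusted p = 0.0351), calls lost in 3 and 6 of the 10 fits without 1 library. Il2ra, the interleukin-2 receptor alpha chain gene, had a log2 difference of -0.73 (limma adjusted p = 0.0415). It was 169, 212 and 186 in TMX 7, 8 and 12 but 424 and 439 in TMX 10 and 11, within the control range of 347 to 495, and its call was lost in 7 of the 10 fits without 1 library. The other 14 tested targets, among them Icam1, Sod2 and Cflar, were not called, and the median log2 difference of the list was 0.02.

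Among 9 genes of RELA acetylation and its readers 2 rose and 3 fell. Crebbp, the gene of the acetyltransferase CBP, averaged 4136 ± 1890 in TMX and 1592 ± 149 in VEH libraries (SD, n = 5 each) and rose by 1.27 on the log2 scale (limma adjusted p = 0.00188). GENCODE M21 tags it as overlapping another locus, so its value is uncertain. Kat2b, the gene of the acetyltransferase PCAF, rose by 0.36 (limma adjusted p = 0.00499). Setd7, a lysine methyltransferase gene that carries the same annotation tag, fell by 0.34 on the log2 scale (limma adjusted p = 0.00608), and Sirt6 by 0.29 (limma adjusted p = 0.0239), the latter lost without VEH 2 or VEH 6. Hdac3, which encodes another deacetylase of RELA, was not called (3482 against 3479, limma adjusted p = 0.992).

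For each gene that fell, the profile over the 10 libraries was compared with those of 10743 other genes with a mean of at least 100, as the mean absolute difference between log2 values centred on each gene. Closest to Nfkb1 were Ppp1r16b (0.0246), Lnpep (0.0255) and Supt5 (0.0280), where the median gene differed by 0.163. Closest to Rela were Gosr2 (0.0350), Ift52 (0.0397) and Ankrd13a (0.0406). Closest to Nfkb2 were Eml4 (0.0291), Adnp2 (0.0304) and Pde12 (0.0314). Closest to Relb were Iqgap1 (0.0580), Synrg (0.0586) and Uevld (0.0588), and among those closest to Rel were Dip2b (0.0290) and Klhl42 (0.0337). Csrp1, Adi1 and Kctd17 were closest to Nfkbie (up to 0.0546), and Cit, Phc3 and Casp9 to Tnfaip3 (0.0370 to 0.0416). None of the genes named here was in the pathway lists. They are the closest by a single measure over 10 libraries, which describes likeness of values only.

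The kappaB element was last set against the whole table. As a description, of 1308 tested genes with a match in a promoter window 24.0% fell and 15.1% rose, against 20.4% and 17.7% of the 9610 genes whose windows held none. The median log2 differences were -0.05 and -0.01. Of the members with a window, Nfkb2, Rel, Nfkbie and Tnfaip3 held a match and fell, Nfkbia held a match and was not called, and Rela fell with no match in its window.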

How the data were processed

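RNA from 10 leukemic spleens (5 TMX, 5 VEH) was measured by strand-specific RNA sequencing. The deposited values are gene counts normalized by the authors with DESeq, as the file name states, and are treated as a normalized signal. The submitters' processing notes name kallisto 0.44.0, DESeq and mm10, and the annotation used is not given in the sources used here. The deposited normalized counts summed to 33660200 to 34472000 per library. At low values 68.0% to 74.0% lay within 0.1 of a whole multiple of the most frequent value, so whole reads were not recovered, depth is unknown and no count model was run. The table has 0 columns outside the 10 samples.

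Genes with a mean of at least 10 were analysed as log2(value + 1) with limma 3.58.1 (R 4.3.3; group as the only term, intensity trend), with Benjamini-Hochberg adjustment over 15276 genes and a threshold of 0.05. This scale understates changes of low genes. The script was tested on simulated data. Ratios were compared by exact permutation tests (Python 3.11.15). Positions and lengths came from GENCODE M21 (GRCm38, the build called mm10), promoter windows from RefSeq GRCm38.p6. Alternatives were other pseudocounts, filters, scalings, tests and thresholds, and the omission of libraries.

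The members and gene lists were chosen with earlier results of these data known. Named were the 10 members, up to 4 called genes per list with the largest log2 difference, the defining markers and the 3 genes most like each member that fell. Other genes named, such as Ptcra, Tcf7, Cd5, Tnf, Ikbkb, Hdac3 and the uncalled IkB relatives and targets, were chosen after their values were seen. Ncr1 and Ccl19 were not analysed here, and list members under the minimum mean entered the summed levels but not the tests. A few genes that the naming rule selects are not reported here.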

Additional observations from a re-analysis of the deposited data

Results flagged for a closer look

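Within each group of 5 libraries, the distance from the outermost library to the next one was taken as a share of the whole span, for the 10 members, the pathway genes named, the 5 ratios and the summed marker lists. This share was above 0.71, the 95% critical value for 5 samples, in 4 of 104 sets of values. Chance alone gives about 1 in 20, or 5.2 of 104. No NF-kB subunit or feedback gene and no ratio was among them. Ltb was low in TMX 10, at 927 normalized counts against 1410 to 1567 in the other TMX libraries. TMX 10 was also the lowest of its group for the summed interferon response genes, at 22102 against 32958 to 37304. Map3k7 was low in TMX 12, at 2739 against 3084 to 3153. The summed neutrophil markers were high in VEH 4, at 12658 against 9166 to 9714 in the other controls.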

How the results depend on the processing

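No paired analysis was possible because the titles give the groups no shared number. Leaving out 1 library at a time gave 5 to 7 called members, and the signs of the 7 genes that fell held in every such fit. The log2 differences without 1 library ranged from -0.32 to -0.28 for Nfkb1, -0.30 to -0.22 for Nfkb2, -0.26 to -0.20 for Rela, -0.37 to -0.25 for Relb, -0.24 to -0.17 for Rel, -0.39 to -0.28 for Nfkbie and -0.27 to -0.19 for Tnfaip3. Those of the uncalled genes ranged from -0.055 to 0.076 for Nfkbia, -0.077 to 0.12 for Birc3 and 0.10 to 0.52 for Traf1, and that of the Rel to Rela ratio from -0.016 to 0.056.

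At an adjusted p under 0.01, 4 members were called (lower), and Relb (-0.32), Rel (-0.21) and Tnfaip3 (-0.23) were not, by construction. That threshold left 2850 genes (1328 higher, 1522 lower) and 20 pathway genes (8 higher, 12 lower). The exact rank-sum test called 3659 genes (1691 higher, 1968 lower) and 19 pathway genes (8 higher, 11 lower), and lost Relb (-0.32). With 5 against 5 libraries these calls were the genes whose groups did not overlap, so the loss of Relb followed from its overlap. A minimum mean of 50 left 11 pathway genes higher, with fewer genes tested. The Rel call was also lost with a pseudocount of 5 (-0.21), a minimum mean of 1 or no filter (-0.21 each), upper-quartile rescaling (-0.15) and median-of-ratios rescaling (-0.20). Nfkbia turned positive, uncalled, with upper-quartile rescaling (0.050), quantile normalization (0.060) and sample weights (0.00035). Upper-quartile rescaling also moved the called genes to 3162 higher and 2272 lower, from 46.4% to 58.2% higher.

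The alternatives that follow were chosen after seeing the data. Scaling to the 11 T lineage markers shifted the median of all genes by 0.10 (log2), left 1485 genes lower (66.3% of calls higher), 1 member called (lower) and 26 pathway genes called (8 lower). Nfkb2 (-0.16), Rela (-0.14), Relb (-0.22), Rel (-0.11), Nfkbie (-0.23) and Tnfaip3 (-0.13) were then lost, and Nfkbia was 0.093. Scaling to the Cd3 genes shifted it by -0.08 and left 1229 genes (24.6% of calls) and 8 pathway genes higher, with Rel at -0.29 (lost) and Birc3 at -0.057. Without TMX 7 and TMX 8, 3388 genes were called (1500 higher, 1888 lower), 3 members (lower) and 26 pathway genes (8 higher). Nfkb2 (-0.20), Relb (-0.34), Rel (-0.21) and Tnfaip3 (-0.23) were lost, and Birc3 was -0.12. Without TMX 10 and TMX 11, 29 pathway genes were higher, Rel (-0.22) was lost and Nfkbia was 0.043. The cause was not tested. Depth is unknown, so its limit on low genes such as Traf1 could not be given.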
